A study of Rattus norvegicus with 8 samples.

Results

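Genes of brown fat and of adipocytes in general were followed in adrenal glands of 7-day-old rat pups. The set held 10 genes (Ucp1, Cidea, Pparg, Fabp4, Lpl, Cd36, Cav1, G0s2, Cfd and Adipoq), chosen by their symbol in the platform annotation of the array. Of these, 9 had a probe set named for them alone, 10 probe sets among 15866, of 10411 genes so named on the array. Adipoq, the gene of the fat hormone adiponectin, is not analysed here. Hypoxic pups had lived with their dams in 12% O2 from birth to postnatal day 7, and normoxic pups in room air. Each sample was a pool of 24 decapsulated glands read on its own 1-colour array, with 4 hypoxic and 4 normoxic pools. Strain and sex are not given in the sources used here, and nothing says how litters were spread over the pools, so p-values measure the spread between pools.

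Brown fat is the heat-making fat of the newborn, and a depot of it lies around the kidney and the adrenal gland. Its cells burn fatty acids in mitochondria that UCP1 uncouples from ATP synthesis, under noradrenaline from sympathetic nerves. PPAR gamma, the master transcription factor of fat cells, switches on genes for the uptake, binding and storage of fatty acids that brown and white fat cells share. Several of those genes are also active outside fat: Fabp4, Cd36 and Cav1 in endothelium, and Fabp4, Cd36 and Lpl in macrophages.

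Upstream sequences are shown for 4 of the genes whose signals varied together across pools, so that their start regions can be compared. Each line gives the 250 bases before the annotated start site on rat assembly GRCr8, from RefSeq, 5' to 3' on the strand of the gene. Capitals mark any match, on either strand, to the TATA box TATAAA, the CCAAT box, the nuclear receptor site AGGTCA that PPAR gamma and its relatives share, its direct repeat with 1 base between (DR1), or the cAMP response element TGACGTCA.
Ucp1 (chr19:41721422-41721671, minus strand): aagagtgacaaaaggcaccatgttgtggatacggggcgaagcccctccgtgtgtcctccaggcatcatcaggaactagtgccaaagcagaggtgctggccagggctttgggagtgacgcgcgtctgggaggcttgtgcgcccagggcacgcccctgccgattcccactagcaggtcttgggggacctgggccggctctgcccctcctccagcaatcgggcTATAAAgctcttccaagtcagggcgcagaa
Cidea (chr18:63164567-63164816, plus strand): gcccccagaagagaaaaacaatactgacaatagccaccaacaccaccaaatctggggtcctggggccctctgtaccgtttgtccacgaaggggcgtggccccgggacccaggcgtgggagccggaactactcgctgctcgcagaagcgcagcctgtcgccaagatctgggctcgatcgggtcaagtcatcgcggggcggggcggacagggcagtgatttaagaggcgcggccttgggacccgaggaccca
Cfd (chr7:10465497-10465746, minus strand): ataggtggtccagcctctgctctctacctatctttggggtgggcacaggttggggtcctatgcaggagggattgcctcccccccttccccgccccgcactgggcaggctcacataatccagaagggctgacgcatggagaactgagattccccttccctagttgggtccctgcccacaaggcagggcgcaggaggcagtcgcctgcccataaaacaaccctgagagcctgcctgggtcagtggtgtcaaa
G0s2 (chr13:107335949-107336198, minus strand): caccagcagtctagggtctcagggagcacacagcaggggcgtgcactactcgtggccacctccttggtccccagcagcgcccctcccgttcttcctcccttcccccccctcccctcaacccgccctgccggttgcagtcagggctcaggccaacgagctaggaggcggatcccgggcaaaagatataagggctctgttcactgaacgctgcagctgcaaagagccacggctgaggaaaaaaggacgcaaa
Ucp1 held 1 match, TATAAA with its first base 30 bases before the start site (position -30), and the windows of Cidea, Cfd and G0s2 held none of the 5 motifs. Among the windows not printed, TATAAA matched at -175 in Cd36 and at -184 in 1 of 2 windows of Cav1, and the CCAAT box at -103 in 1 of 2 windows of Pparg and at -69 and -42 in Adipoq. Over 33469 promoter windows of this length, the TATA box was found in 12.9%, the CCAAT box in 34.0%, the receptor site in 14.1%, its direct repeat in 0.051% and the cAMP element in 1.59%; each direct repeat also counts as a receptor site. Of the 10 genes, 8 had an entry in the promoter table, with none for Fabp4 and Lpl. On GRCr8 Fabp4 lies at chr2:93488251-93492961, Lpl at chr16:25596205-25621928, Pparg at chr4:150095743-150221104, Cd36 at chr4:18209088-18302142 and Cav1 at chr4:46606538-46639616.

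The arrays had probably been scaled by the authors to a common level. Their trimmed mean was 500.1 on average, and their medians ran from 228.2 to 248.7 in arbitrary units of intensity. Probe sets for bacterial transcripts reached at most 83.5, with 5.4 as their median. The adrenal label held in the data: Cyp11a1, the enzyme that starts steroid synthesis, measured 19635 ± 3240 in hypoxic and 18384 ± 2421 in normoxic pools (SD, n = 4 each), and Th, the first enzyme of catecholamine synthesis, 9573 ± 1939 and 8743 ± 1784. All 9 adipocyte genes were also above every bacterial control in every pool at their brightest probe set, the lowest value being 92.3 for Ucp1 in hypoxic pool 2. Among fat genes under the brightness limit for testing (a mean signal of 95.2), Ppargc1a averaged 3.75 in hypoxic and 5.55 in normoxic pools, Dio2 18.4 and 21.6, and Lep, the leptin gene of white fat, 6.78 and 13.7 (these were picked after their values were seen). In pooled tissue, fewer cells of a type and less RNA per cell cannot be told apart.

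Ucp1, the uncoupling protein that marks brown fat cells, had the widest spread of the set. It measured 510.7, 92.3, 359.8 and 386.1 in hypoxic pools 1 to 4, against 1675.2, 388.8, 381.2 and 1820.3 in normoxic pools 1 to 4. Normoxic pools 1 and 4 stood far above all others, while normoxic pools 2 and 3 lay inside the hypoxic range. The log2 difference, hypoxic minus normoxic on the log2(value + 16) scale, was -1.46 with a 95% interval from -2.72 to -0.21 (limma, unadjusted p = 0.0258, adjusted p = 0.502). Within groups its log2 SD was 1.13, above that of 99.9% of the 11106 probe sets tested, for which the median was 0.19.

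Cidea, a lipid droplet protein abundant in brown fat, measured 841.2, 317.6, 932.8 and 593.9 in hypoxic pools, against 2202.4, 585.8, 461.7 and 1707.4 in normoxic pools. Again normoxic pools 1 and 4 were the brightest, and the other normoxic pools overlapped the hypoxic ones. The log2 difference was -0.68 (interval -1.70 to 0.33, adjusted p = 0.733), and the log2 SD inside the groups was 0.91. With 1 pool left out it ran from -1.05 (without normoxic pool 3) to -0.31 (without normoxic pool 1).

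Pparg, the transcription factor gene, measured 259.4, 93.7, 211.9 and 125.3 in hypoxic pools, against 339, 121.7, 140.3 and 166.4 in normoxic pools, and the groups overlapped. Its log2 difference was -0.13 (interval -0.85 to 0.59, adjusted p = 0.95). Intervals of this width still include differences of over 0.5 log2 in both directions.

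Among genes of fatty acid handling, Fabp4, the fatty acid binding protein of fat cells, measured 4417.8, 1037.4, 4756.1 and 2064.3 in hypoxic pools, against 5088, 1550.8, 1911.9 and 4602.3 in normoxic pools. Hypoxic pools 1 and 3 were close to normoxic pools 1 and 4, and the log2 difference was -0.15 (interval -1.21 to 0.90, adjusted p = 0.962). Lpl, the lipase that frees fatty acids from circulating lipoproteins, measured 1544.2, 1180.8, 1727.3 and 1205.4 in hypoxic pools, against 2020.5, 913.3, 1248.2 and 2024.6 in normoxic pools. The hypoxic values all lay inside the normoxic range, with a log2 difference of -0.07 (interval -0.58 to 0.43, adjusted p = 0.962). G0s2, an inhibitor of the fat-splitting lipase ATGL, measured 493.5, 156, 493.8 and 219.7 in hypoxic pools, against 433.3, 178.3, 188 and 319.9 in normoxic pools. Its groups overlapped, with a log2 difference of 0.20 (interval -0.59 to 1.0, adjusted p = 0.913).

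Cav1, the coat protein of caveolae, which are dense on fat cells and endothelium, measured 1742.3, 863.3, 1353.8 and 916.4 in hypoxic pools, against 1935.9, 714.6, 838.3 and 1488.4 in normoxic pools. The groups overlapped fully, with a log2 difference of 0.03 (interval -0.63 to 0.69, adjusted p = 0.991). A dimmer probe set of Cav1, with values from 39.5 to 140.2 in hypoxic and from 62.4 to 237.9 in normoxic pools, gave -0.55 (interval -1.35 to 0.25, adjusted p = 0.721). It read 66.5 and 39.5 in hypoxic pools 2 and 4 and 62.4 in normoxic pool 2, under the highest bacterial control, so no direction is read from it. Cd36, the membrane fatty acid transporter, measured 993.1, 1347.4, 1067.8 and 1005.3 in hypoxic pools, against 874.8, 783.4, 1547.3 and 1547.2 in normoxic pools. Its order of pools was unlike the others, and its log2 difference was -0.05 (interval -0.51 to 0.42, adjusted p = 0.971). A brighter probe set, annotated to both Cd36 and Cd36l1 and so uncertain, measured 4600.7, 3631.1, 4068.5 and 3096.6 in hypoxic pools, against 3937.3, 2259.9, 3146.3 and 3759.4 in normoxic pools. It gave a log2 difference of 0.25 (adjusted p = 0.736).

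The secreted member, Cfd (adipsin, a complement protease released by fat cells), measured 429.3, 163.8, 679.7 and 317.3 in hypoxic pools, against 1014.7, 360.2, 345 and 766.3 in normoxic pools. Its 2 brightest pools were normoxic and its dimmest 2 hypoxic, with overlap between them. The log2 difference was -0.64 (interval -1.53 to 0.25, adjusted p = 0.709), and with 1 pool left out it ran from -0.94 (without hypoxic pool 3) to -0.29 (without hypoxic pool 2).

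**Figure D1:**
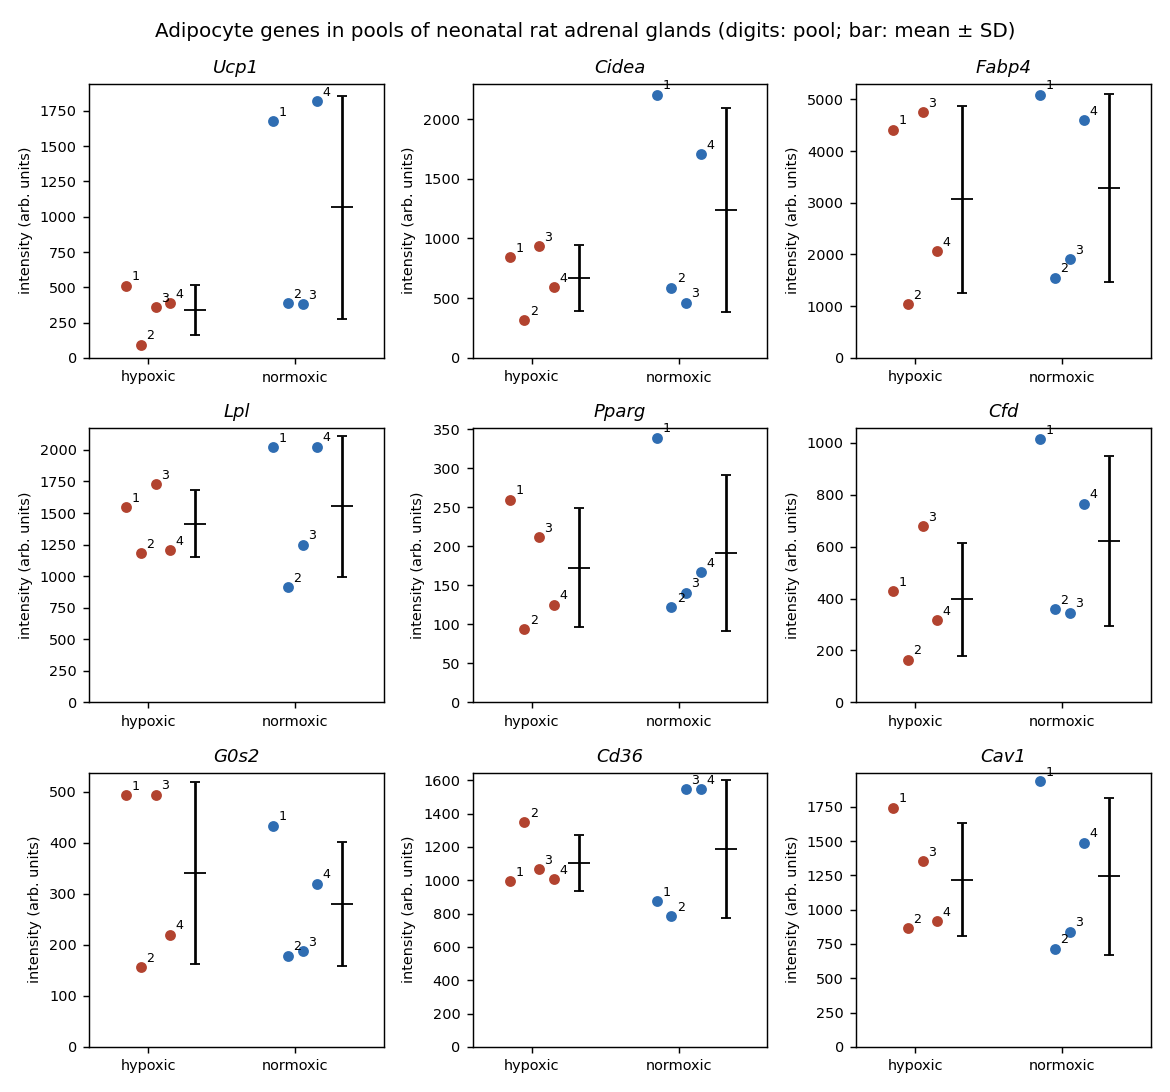
Intensity (arbitrary units, axes from 0) of the 9 measured genes at their brightest probe set named for them alone, in hypoxic (left) and normoxic (right) pools; digits give the pool and bars the mean ± SD. Normoxic pools 1 and 4 stand highest for Ucp1 and Cidea, and hypoxic pool 2 is the lowest hypoxic pool for 8 of 9 genes.

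In all, 0 of the 9 genes passed the threshold in limma (adjusted p of 0.05), where 0.18% of all tested probe sets did. At an unadjusted p under 0.05, 1 passed, Ucp1, which was lower in hypoxic pools, and 4.48% of all probe sets were lower at that level and 4.16% higher. The log2 difference was below 0 for 7 of 9 genes, against 54.8% of all probe sets, with a median of -0.13 for the set and -0.02 over all tested probe sets. For 0 of the 9 did the 4 hypoxic values all lie below the 4 normoxic values, against 2.64% of all probe sets. For 0 did they all lie above, a direction for which no share over all probe sets was counted.

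**Figure D2:**
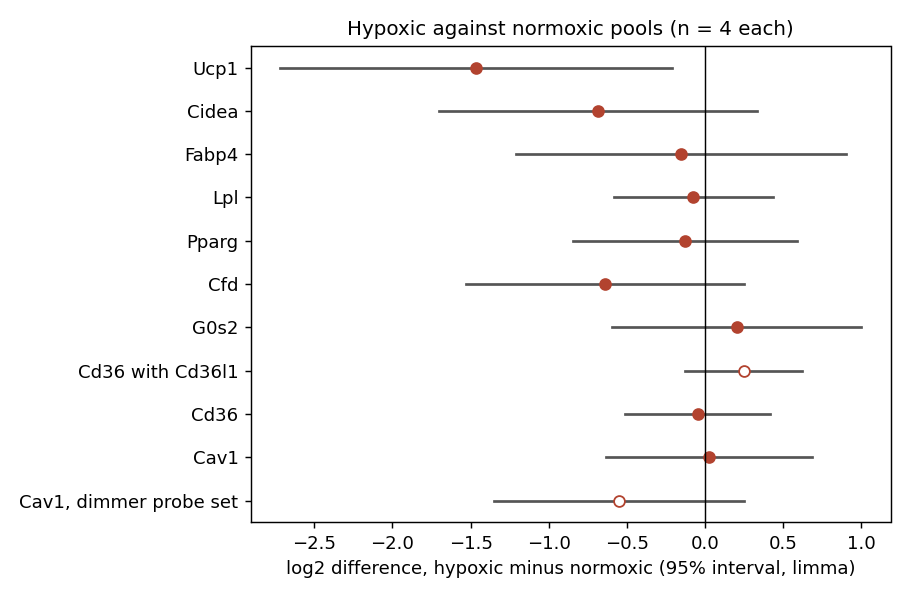
Log2 difference, hypoxic minus normoxic, with its 95% interval for the 11 probe sets; open circles are a dimmer probe set or the one shared with Cd36l1. The Ucp1 interval, from -2.72 to -0.21, does not include 0, but Ucp1 did not pass after adjustment (adjusted p = 0.502).

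Wider lists placed these values among other genes of fat. Of 30 further brown fat genes, 20 had a probe set of their own and 11 passed the brightness limit; Ppargc1a, Dio2, Cox8b, Gk, Zic1, Slc27a2, Acot2, Ppara and Fgf21 did not. In limma 0 of the 11 passed after adjustment, and 3 did so unadjusted, 2 lower and 1 higher. Over all probe sets 4.48% were lower and 4.16% higher unadjusted. Fabp3, a fatty acid binding protein of muscle and brown fat, measured 210.6, 121, 171.1 and 163.5 in hypoxic pools, against 341, 176.2, 212.8 and 721.9 in normoxic pools. Normoxic pool 4 was the highest, as for Ucp1 and Lpl, and the log2 difference was -0.87 (adjusted p = 0.503), or -0.48 without that pool. Cox7a1, a cytochrome oxidase subunit of muscle and brown fat, was lower in all 4 hypoxic pools (91.6, 36.7, 89.1 and 94.8) than in any normoxic pool (120.8, 161.2, 165.3 and 105.2). Its log2 difference was -0.75 (adjusted p = 0.399), or -0.49 without hypoxic pool 2. Over all probe sets 2.64% had no overlap in this direction. The value of 36.7 lay under the highest bacterial control (83.5) and the other hypoxic values just above it, so this difference is uncertain. The mitochondrial carnitine enzyme gene Cpt1b differed by -0.39 (adjusted p = 0.709) and the beta-oxidation thiolase gene Acaa2 by 0.35 (adjusted p = 0.309). The median of the 11 was -0.09.

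Of 46 other adipocyte genes, 42 had a probe set of their own and 34 passed the brightness limit. In limma 0 passed after adjustment, and 2 of the 34 were higher unadjusted, against 4.16% of all probe sets. The list was even in direction, with 17 differences above and 17 below 0 and a median of -0.01. The lowest p belonged to Acly, which makes acetyl-CoA for fat synthesis, at 3299 ± 263 in hypoxic and 2734 ± 169 in normoxic pools (n = 4 each, log2 0.27, adjusted p = 0.407). Sncg differed by 0.45 (adjusted p = 0.547), the amino acid transporter gene Slc1a5 by -0.38 (adjusted p = 0.587) and Gpihbp1, the endothelial anchor of lipoprotein lipase, by 0.46 (adjusted p = 0.622).

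Inside each group the adipocyte genes ranked the pools alike. Normoxic pools 1 and 4 were the brightest 2 normoxic pools for 8 of 9 genes, and hypoxic pools 1 and 3 the brightest 2 hypoxic pools for 7 of 9. Hypoxic pool 2 was the lowest hypoxic pool for 8 of 9, Cd36 being the exception. The share of all probe sets with these pool orders was not counted, so the orders are not shown to be particular to these genes. The median deviation of the 9 genes from their group mean was 0.57, -0.90, 0.37 and -0.21 log2 in hypoxic pools 1 to 4, against 0.81, -0.67, -0.45 and 0.44 in normoxic pools 1 to 4. Between the brightest and the dimmest pool of a group, Ucp1 differed 5.53-fold in hypoxic and 4.78-fold in normoxic pools, Fabp4 4.58-fold and 3.28-fold, and Cfd 4.15-fold and 2.94-fold. The narrowest was Cd36, at 1.36-fold in hypoxic and 1.98-fold in normoxic pools. The log2 SD within groups was above that of 93.0% to 99.9% of tested probe sets for all 9 genes, with a median of 0.70 for the set.

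**Figure D3:**
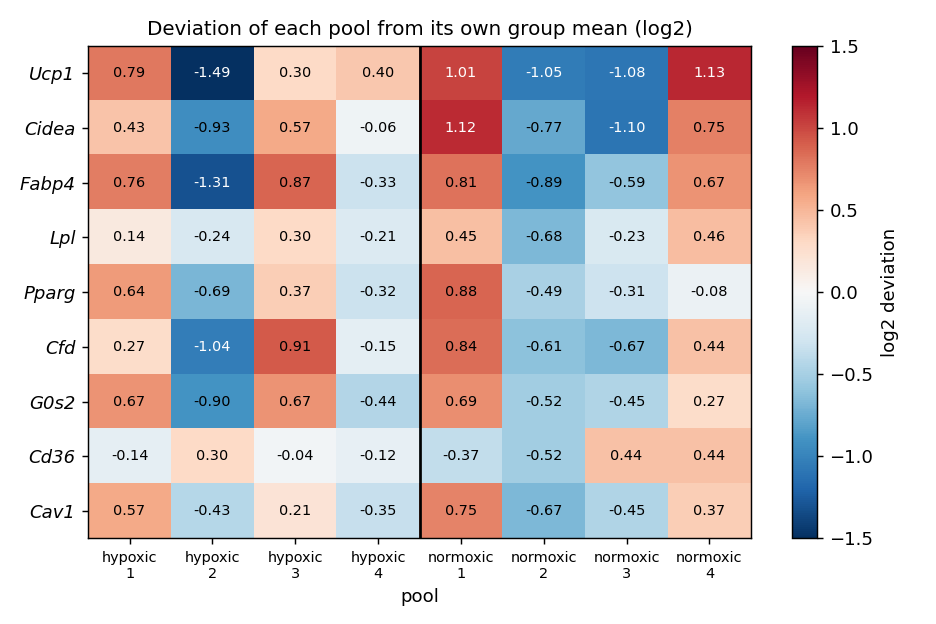
Deviation of each pool from the mean of its own group (log2) for the 9 genes, hypoxic pools left of the line and normoxic pools right of it. Red is above and blue below the group mean; columns share a colour in all rows but Cd36, apart from Ucp1 in hypoxic pool 4 and Pparg in normoxic pool 4.

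Co-variation with Ucp1 was tested in limma with the group and the log2 value of Ucp1 as terms, so that differences between hypoxic and normoxic means did not enter. Over 11105 probe sets, 1 passed the adjusted threshold (0.009%), and it was Cidea. Its slope was 0.76 log2 per log2 of Ucp1 (interval 0.56 to 0.96, adjusted p = 0.0398). This call did not last in every setting: with any 1 of normoxic pools 1 to 4 or hypoxic pools 1 and 2 left out, the adjusted p ran from 0.0634 to 0.295, with slopes from 0.69 to 0.85. The deviations of Ucp1 from its group means left a gap, with 3 pools at -1.05 or lower and 5 at 0.30 or higher, and neither side held enough pools for a correlation of its own.

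Of the 8 genes beside Ucp1, 7 had a slope above 0, against 45.5% of all probe sets, and the median slope was 0.48 for the 8 and -0.01 over all. At an unadjusted p under 0.05, 7 of the 8 had a slope above 0 and 0 a slope below 0, against 3.65% and 1.86% of all probe sets. Fabp4 had a slope of 0.76 (adjusted p = 0.112), Cfd 0.61 (0.158), G0s2 0.51 (0.281), Cav1 0.44 (0.208), Pparg 0.41 (0.521) and Lpl 0.32 (0.354). Cd36 stood apart with a slope of -0.05 (adjusted p = 0.985), and its probe set shared with Cd36l1 had 0.17 (adjusted p = 0.859). Whether these slopes differ from each other was not tested.

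As correlations of the deviations over 8 pools, Pearson's r with Ucp1 was 0.94 for Cidea (exact permutation within groups, two-sided p = 0.0260; Spearman's rho 0.88, p = 0.0347). For Fabp4 r was 0.91 (exact permutation p = 0.0278; rho 0.67, p = 0.0920), and for Cfd 0.88 (exact permutation p = 0.0399; rho 0.74, p = 0.0694). Cav1 had an r of 0.86 (exact permutation p = 0.0417; rho 0.81, p = 0.0712) and G0s2 one of 0.83 (exact permutation p = 0.0278; rho 0.74, p = 0.0660). Lpl had an r of 0.82 (exact permutation p = 0.0816; rho 0.86, p = 0.0451), Pparg one of 0.76 (exact permutation p = 0.0260; rho 0.71, p = 0.0677) and Cd36 one of -0.15 (exact permutation p = 0.557; rho -0.21, p = 0.514). These p-values, over 10 probe sets, are unadjusted; the adjusted ones are those of the slopes. Normoxic pools 1 and 4 were the farthest from the median of Ucp1. Without them r was 0.89 for Cidea, 0.85 for Fabp4, 0.80 for Pparg and 0.79 for Cfd. It was 0.78 for G0s2, 0.69 for Cav1 and 0.48 for Lpl. Normoxic pools 2 and 3, which stayed in, had nearly equal Ucp1 values (388.8 and 381.2). These r therefore came almost wholly from the hypoxic pools, where only pool 2 had Ucp1 below its group mean (-1.49 log2). Whether any r rested on single pools cannot be told from this. Among 8010 named genes ranked by r, Cidea was 10th, Fabp4 34th, Cfd 64th, Cav1 86th, G0s2 132nd, Lpl 159th, Pparg 249th and Cd36 4772nd.

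**Figure D4:**
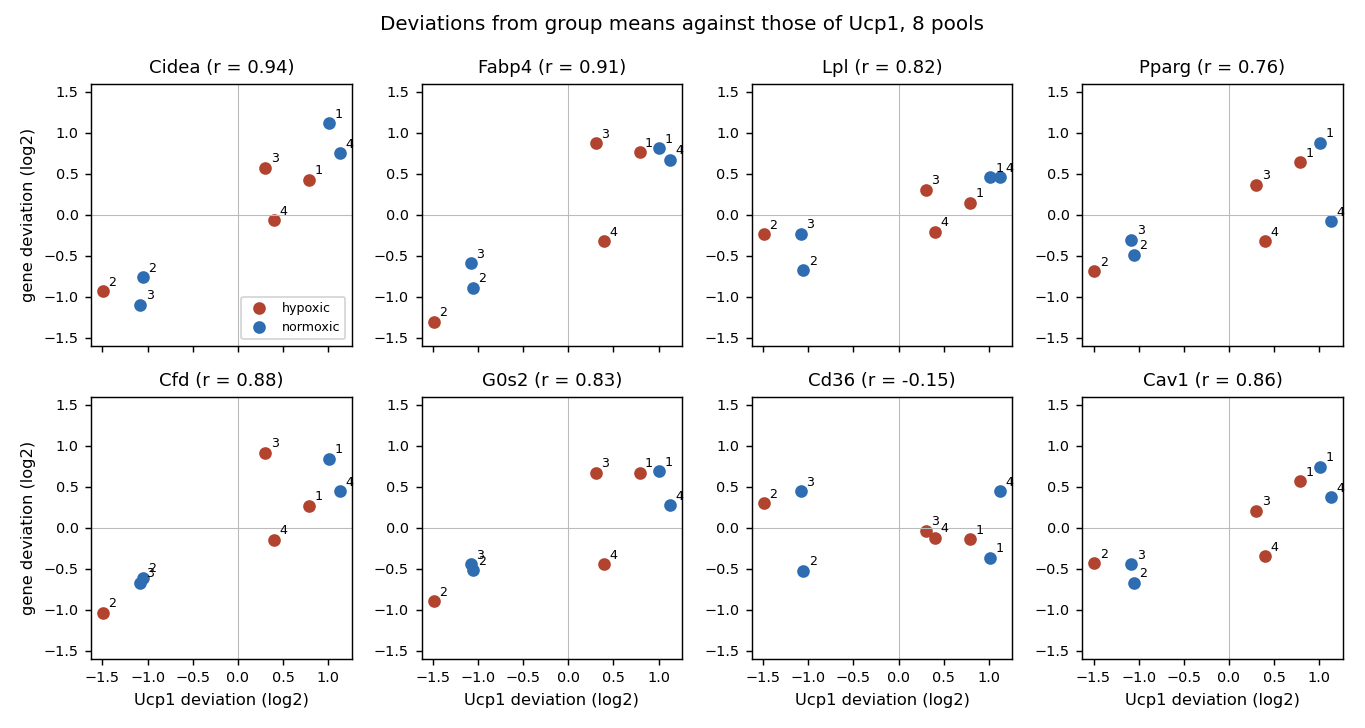
Log2 deviation from the group mean for Ucp1 (horizontal) and for each of the other 8 genes (vertical) in 4 hypoxic and 4 normoxic pools; digits give the pool. Points lie along a rising line for 7 genes and not for Cd36, and hypoxic pool 4 lies below that line in those 7 panels.

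Pparg parted from Ucp1 in normoxic pool 4, at -0.08 against 1.13 log2 from the group means. In hypoxic pool 4 Ucp1 and the other genes all lay on opposite sides of their group means. There Ucp1 lay 0.40 above its group mean, while Fabp4 was at -0.33, G0s2 at -0.44, Cav1 at -0.35, Pparg at -0.32 and Lpl at -0.21. Cfd at -0.15, Cd36 at -0.12 and Cidea at -0.06 were nearer their means there. Without it, a pool singled out because it lay off the line, so that a closer fit is built in, 5 of the 8 genes passed in limma, against 0.351% of all probe sets with a slope above 0: Cidea (adjusted p = 0.0102), Fabp4 (0.0102), Cav1 (0.0270), G0s2 (0.0362) and Cfd (0.0415). Over all probe sets 40 passed without that pool, 39 of them with a slope above 0. Of the 7 other pools, leaving out hypoxic pool 3 gave 3 calls among the 8 genes and leaving out any other gave 0.

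Ucp1 was also set against the other genes within each pool, a comparison chosen after the values had been seen. The log2 value of Ucp1 minus that of Fabp4 was -3.07, -3.28, -3.67 and -2.37 in hypoxic pools, against -1.59, -1.95, -2.28 and -1.33 in normoxic pools. All 4 hypoxic values lay below all 4 normoxic values, and the same held for Ucp1 minus Cidea, G0s2 and Cav1, so for 4 of the 8 genes. Over all probe sets subtracted from Ucp1 this held for 2.93%. Ucp1 was itself lower in hypoxic pools, and subtracting a gene that follows it inside the groups removes shared spread. Less overlap is thus built in for such genes, and most probe sets behind the 2.93% do not follow Ucp1. A narrower interval with Fabp4 as a term is built in likewise. In limma with the log2 value of Fabp4 as a term, Ucp1 differed between hypoxic and normoxic pools by -1.30 (interval -1.88 to -0.72, unadjusted p = 0.000418, adjusted p = 0.103), and 0.189% of probe sets passed. Cidea differed there by -0.55 (adjusted p = 0.438), Cfd by -0.52 (0.278), G0s2 by 0.31 (0.534), Cav1 by 0.11 (0.878), Pparg by -0.04 (0.976) and Lpl by -0.01 (0.988). With Ucp1 as the term in place of Fabp4, 0 of 11105 probe sets passed (0%), and Fabp4 differed by 0.96 (adjusted p = 0.374), G0s2 by 0.95 (0.374), Cav1 by 0.67 (0.413) and Cidea by 0.43 (0.656). None of these differences passed the adjusted threshold.

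The genes most like Ucp1 inside the groups, beyond the 10, were named by rank of r among 1126 named genes with a log2 SD within groups of at least 0.3. In order they were Ccdc80, a secreted matrix protein (r = 0.96), Fbn1, the fibrillin of elastic microfibrils (0.95), Serpinf1 (0.92), the sphingosine-1-phosphate receptor gene S1pr3 (0.91), the glypican gene Gpc3 (0.91), Nfix (0.90), the actin-severing gelsolin gene Gsn (0.90) and Aqp7, the glycerol channel of fat cells (0.90). They were followed by S100a6 (0.90), Abhd12 (0.89), the fibronectin gene Fn1 (0.89), Aoc3, an amine oxidase abundant in fat (0.89), the protease gene Htra3 (0.89), S100a9 (0.89) and the collagen gene Col6a1 (0.89). Ccdc80, for example, measured 561.9, 291.9, 554.4 and 434.1 in hypoxic pools, against 596, 256.9, 285.1 and 511.2 in normoxic pools. Its 4 brightest pools were the 4 brightest of Fabp4, and its group difference was 0.20 (adjusted p = 0.884). At the other end stood the DNA polymerase gene Poll (r = -0.96), Strn (-0.92), Lypd3 (-0.90), Retnla (-0.88) and Dpf1 (-0.88). None of these 20 genes passed limma for the slope, with adjusted p from 0.112 for Ccdc80 to 0.618 for Dpf1.

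Lists of other cell types were set beside Ucp1 in the same way, and 0 of their genes passed the adjusted threshold for the slope in limma. Fibroblast and preadipocyte markers had 10 of 11 slopes above 0, 8 of them at an unadjusted p under 0.05, and a median r of 0.76. Their summed intensity was 28882, 18135, 23222 and 19249 in hypoxic pools, against 28014, 14901, 15948 and 25645 in normoxic pools, highest in hypoxic pool 1 and normoxic pools 1 and 4. Other adipocyte genes had 26 of 34 slopes above 0, 15 of them unadjusted, with 1 below 0 unadjusted, and a median r of 0.64. Other brown fat genes had 8 of 11 above 0, 2 of them unadjusted, with 1 below 0 unadjusted, and a median r of 0.22. Over all tested probe sets the median r was -0.06 and 45.5% of slopes were above 0. Unadjusted, 3.65% passed with a slope above 0 and 1.86% with one below 0.

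Endothelial markers, where Fabp4, Cd36 and Cav1 are also active, had 7 of 14 slopes above 0, 1 of them unadjusted, and a median r of -0.01. That 1 was Gpihbp1, which is also counted among the other adipocyte genes. Their summed intensity ran from 7087 to 7844 in hypoxic and from 6956 to 8116 in normoxic pools. Macrophage markers had 8 of 10 slopes above 0, 1 of them unadjusted, with a median r of 0.16, and sums from 4904 to 5959 in hypoxic and from 5505 to 6815 in normoxic pools. Chromaffin markers had 0 of 11 slopes above 0, 1 of the 11 below 0 unadjusted, and a median r of -0.49, with sums from 44549 to 60437 in hypoxic and from 38091 to 50407 in normoxic pools. Adrenal cortex markers had 5 of 9 slopes above 0, 0 of 9 passing unadjusted, a median r of 0.01 and sums from 104795 to 151750 in hypoxic and from 105686 to 141171 in normoxic pools. No value of any of these lists was 0. The part of other cell types in the results was not tested.

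**Figure D5:**
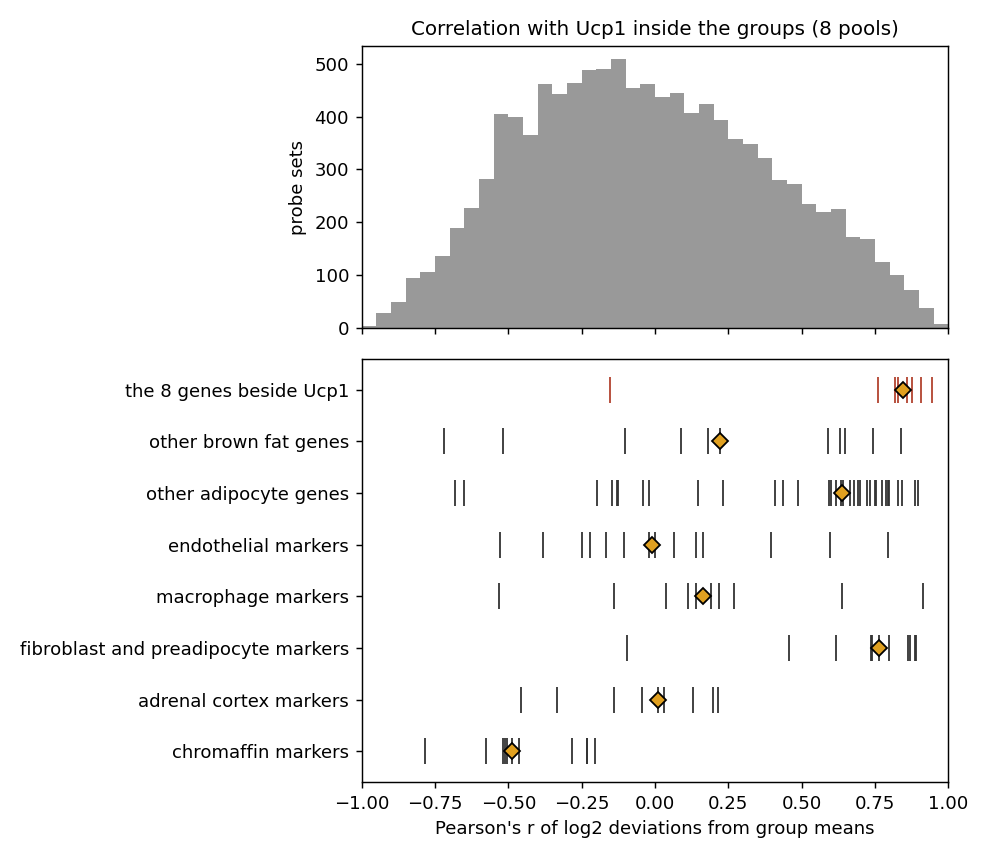
Pearson's r with Ucp1 of log2 deviations from group means over 8 pools, as a histogram over 11105 probe sets (top) and by gene list (bottom; ticks are genes at their brightest probe set, diamonds medians). The 8 genes beside Ucp1 have a median of 0.84, fibroblast and preadipocyte markers 0.76, endothelial markers -0.01 and chromaffin markers -0.49.

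Between hypoxic and normoxic pools, 0 genes of the fibroblast, endothelial, macrophage, cortex, muscle and kidney or liver lists passed limma after adjustment. Unadjusted, 1 of 14 endothelial and 3 of 10 macrophage genes were lower in hypoxic pools, against 4.48% of all probe sets. None of these lists had a gene higher, against 4.16% of all probe sets. Pecam1, the endothelial adhesion gene, differed by -0.53 (adjusted p = 0.238) and Plvap by -0.26 (0.606), while C1qa and C1qc, complement genes of macrophages, differed by -0.42 (0.304) and -0.34 (0.438). These had the lowest p of their lists. Of the 14 endothelial differences, 6 were above and 8 below 0, with a median of -0.02. Of the 10 macrophage differences, 2 were above and 8 below 0, with a median of -0.25. Among chromaffin genes 1 rose, the vesicular transporter gene Slc18a2 (log2 0.98, adjusted p = 0.0318), Npy differing by 0.56 (0.0844) and Pnmt by 0.09 (0.912). The call of Slc18a2 held in 6 of 16 alternatives, with adjusted p up to 0.118 and log2 differences from 0.80 to 1.09. All 11 chromaffin differences were above 0, with a median of 0.25, where 54.8% of all probe sets were below 0. At an unadjusted p under 0.05 in limma, 6 of the 11 were higher, against 4.16% of all probe sets. Dlk1, the preadipocyte factor, differed by 0.23 (0.714), Pdgfra by 0.20 (0.806), Nr5a1 by -0.27 (0.876), Akr1b7 by 0.08 (0.896) and Star by -0.01 (0.990). Of 12 skeletal muscle markers 2 passed the brightness limit, Ckm (-0.27, adjusted p = 0.675) and Tnni2 (0.08, 0.917), and of 12 kidney and liver markers 4 did, among them Serpina1 (0.44, 0.668) and Miox (-0.27, 0.773). Those 4 summed to 2789, 768, 1193 and 686 in hypoxic pools, against 706, 906, 1525 and 1719 in normoxic pools. Alb, another of them, had a log2 SD within groups of 1.11 and an r with Ucp1 of 0.27.

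The beta-actin 5' over 3' signal ratio, a sign of RNA integrity, was 0.249, 0.491, 0.713 and 0.528 in hypoxic pools, against 0.413, 0.597, 0.744 and 0.674 in normoxic pools (exact permutation p = 0.4, two-sided). The lowest ratio of each group was in pool 1, where the adipocyte genes were among the brightest. For Gapdh the ratio was 0.618, 0.602, 0.556 and 0.659 in hypoxic pools, against 0.639, 0.587, 0.731 and 0.701 in normoxic pools (exact permutation p = 0.2). Both permutations ran over all pools without regard to pool number. The actin ratio was lower in the hypoxic than in the normoxic pool of every number. The Gapdh ratio was so too, except for pool 2, where the hypoxic one was higher. The part of RNA integrity in the co-variation and in the group differences was not tested.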

How the data were processed

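RNA of 8 pools of adrenal glands was measured on 1-colour arrays from biotin-labelled cRNA, per the labels' protocols. The deposited intensity values are probe set summaries on a linear scale; the sources used here name no summary software. After trimming 2% at each end, the mean was 500.1 on average over the 8 arrays. The authors had probably scaled the arrays to a common level, and scaling hides any shift common to most genes. The number of arrays limits the precision.

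Gene names came from GEO's platform annotation, which may be out of date. Without 57 control probe sets, 12783 probe sets had 1 symbol, 312 several and 2771 none. Of the first, 12748 matched a RefSeq gene ID of assembly GRCr8. Probe sets with several symbols named no gene. The log2 of each value plus 16 was used, with 1 as the smallest value allowed, so that changes of dim probe sets come out too small. Array medians lay within 0.116 log2, under a limit of 0.2, so no further normalization was done. The tests covered the 11106 probe sets, with 8011 named genes, above the 30th percentile of mean log2 (a mean signal of 95.2).

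Groups were compared with limma 3.58.1 (lmFit, eBayes with trend) in R 4.3.3. Two-sided p-values were adjusted by Benjamini-Hochberg across every probe set in the fit, and 0.05 was the threshold; a second fit added the log2 value of Ucp1. A gene was represented by its brightest tested probe set. Correlations of deviations were permuted within groups over 576 arrangements. Both fits were tested on simulated data. Alternatives were the offset, filter, variance trend, quantile normalization, averaged probe sets, a replicate block, Ucp1 or Fabp4 as a term and leaving out each pool. The genes and lists were chosen with earlier results of these data known. Genes named from lists were those past the threshold, those with the lowest p (4 for each fat list, 2 for others), the markers Cyp11a1, Star, Th and Pnmt, and the 15 highest and 5 lowest r with Ucp1. Plots were drawn with matplotlib 3.10.9 and motifs counted with pandas 2.3.3, under Python 3.11.15.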

Additional observations from a re-analysis of the deposited data

Results flagged for a closer look

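In groups of 4 pools, single values far from the other 3 were looked for in 74 groups, with the 95% limit of Dixon's test, and 4 were found; chance gives about 1 in 20. None was at a probe set of the 10 adipocyte genes. Cox7a1, of the brown fat list, was 36.7 in hypoxic pool 2, against 89.1 to 94.8 in the other hypoxic pools. That value lay under the highest bacterial control (83.5). Of the adipocyte genes, 8 of 9 were also lowest in hypoxic pool 2 among the hypoxic pools. In normoxic pools Cox7a1 ran the other way, at 120.8 and 105.2 in pools 1 and 4, the brightest pair for 8 of 9 adipocyte genes. It measured 161.2 and 165.3 in normoxic pools 2 and 3, and its r with Ucp1 was 0.18. C1qc, a macrophage gene, was 502.1 in normoxic pool 2, against 415.5 to 421.6 in the other normoxic pools. The muscle gene Ckm was 146.9 in hypoxic pool 3, against 105.5 to 105.9 in the other hypoxic pools. Star, the cholesterol carrier of steroid synthesis, was 9377.9 in normoxic pool 1, against 12424.1 to 13051.6 in the other normoxic pools, and that pool was the brightest normoxic one for 6 of 9 adipocyte genes. In hypoxic pool 1, also bright for most of these genes, Star was the highest of the hypoxic pools (13516.8). The r of Star with Ucp1 was -0.05.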

How the results depend on the processing

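The count of adipocyte genes called between hypoxic and normoxic pools was 0 in all 18 alternatives, including those with Ucp1 or, added after the data were seen, Fabp4 as a term. Calls over all probe sets numbered 20, but 0 with no filter on dim probe sets or no variance trend, and from 0 to 31 with 1 pool left out. For co-variation with Ucp1 there was 1 call over all probe sets, Cidea, and 0 with an offset of 1 (adjusted p = 0.0543), no filter (0.124), no variance trend (0.0828), quantile normalization (0.0562) or the replicate block (0.162). With 1 pool left out the calls ran from 0 to 40 over all probe sets and from 0 to 5 among the adipocyte genes, the highest without hypoxic pool 4; without hypoxic pool 3 there were 3, all adipocyte genes. The slope of Cidea stayed above 0 in all 16 alternatives, from 0.69 to 1.17. Whether replicate numbers pair the pools cannot be told from these data. Same-numbered pools correlated at 0.32, 0.0026, 0.19 and -0.043 in their deviations, and 4 of 8 pools correlated best with their own number. The beta-actin 5' over 3' ratio rose in the order of pools 1, 2, 4 and 3 in both groups. The block left 18 calls between the groups.

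The difference of Ucp1 kept its sign throughout, from -1.82 without normoxic pool 3 to -0.97 without hypoxic pool 2. The call of Slc18a2 between the groups was lost in 10 of 16 alternatives. Others near 0 turned with 1 pool left out: Fabp4 ran from -0.45 to 0.28, Lpl from -0.30 to 0.078, Pparg from -0.34 to 0.16, Cav1 from -0.20 to 0.28, Cd36 from -0.22 to 0.10, G0s2 from -0.019 to 0.50, Nr5a1 from -0.46 to 0.15, Star from -0.12 to 0.055, Cyp11a1 from -0.0085 to 0.19, Th from -0.0087 to 0.26 and Pnmt from -0.018 to 0.19. The slope of Cd36 ran from -0.18 to 0.038. With probe sets averaged, Cav1 turned to -0.26 and Star to 0.037, and under the block the slope of Dpf1 turned to 0.017. With Ucp1 as a term the differences turned to 0.43 for Cidea, 0.26 for Cfd, 0.96 for Fabp4, 0.39 for Lpl and 0.47 for Pparg. The cause was not tested. Dim probe sets and 4 pools a group limit what could be seen: the Ucp1 interval spanned from -2.72 to -0.21.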
